A study of Mus musculus with 12 samples.

Results

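Apod, Ptgds, Pdpn, Slc6a13, Col1a1, Col1a2, Col3a1, Dcn, Lum and Foxc1 are 10 genes whose transcripts mark the meninges and the fibroblasts of connective tissue. They were followed in central nervous system tissue of wild-type and NR3B knockout mice, at birth (P0) and 5 days later (P5). The 10 genes were chosen from earlier results of the same arrays. Apod, Ptgds and Slc6a13 had stood out in the comparison of the genotypes at P0, and Pdpn and Apod in the change of the genotype difference with age. They are 10 of 18193 genes that the arrays measure through a probe set with a single gene symbol. All 10 passed the filter on dim probe sets, which 12600 genes passed.

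The study held 12 samples of total RNA, 3 in each of 4 groups: P0 wild type, P0 knockout, P5 wild type and P5 knockout, each read on its own Affymetrix array. One label names the tissue as brain with hindbrain and spinal cord and another as brain, and the labels give neither the strain nor the part of the gene that was deleted. NR3B is taken here as the NMDA receptor subunit that the gene Grin3b encodes. Samples carry numbers within a group, but no label says that each number is another animal, and the p-values therefore cover only the spread among these samples, part of which may be technical.

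The meninges are the membranes that wrap the brain and spinal cord, and their fibroblasts lay down a collagen-rich matrix, take up and release solutes, and secrete factors that act on the underlying nervous tissue. Fibroblasts of the same family follow larger blood vessels into the tissue and form the stroma of the choroid plexus. Foxc1 is a forkhead transcription factor needed for the meninges to form. Col1a1 and Col1a2 encode the chains of type I collagen, and Col3a1 that of type III collagen, which assemble into mixed fibrils. Dcn (decorin) and Lum (lumican) are small leucine-rich proteoglycans that bind such fibrils. Ptgds, prostaglandin D2 synthase, is secreted into the cerebrospinal fluid as a carrier of the lipocalin family, to which the lipid-binding apolipoprotein D (Apod) also belongs. Slc6a13 encodes the GABA transporter GAT2, and Pdpn encodes podoplanin, a mucin-type membrane glycoprotein. None of these transcripts is private to the meninges: Apod and Ptgds are also made by oligodendrocytes, Ptgds and Pdpn by the choroid plexus, and fibrillar collagens by fibroblasts of most organs. In bulk tissue, fewer cells of a type and less RNA per cell cannot be told apart.

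Stretches of DNA before the transcription start were read for the 7 of 10 genes that the RefSeq table lists (assembly GRCm38.p6), and 6 are printed, to show both secreted carriers, both membrane proteins and a chain each of type I and type III collagen. Col1a1, Dcn and Lum are the genes not listed. Each line gives 150 bases 5′ to 3′ up to the start on the gene's strand. Capitals mark a TATAAA or CCAAT motif found on the printed strand. The stretches lie at chr16:31314809-31314958 (minus strand) for Apod, chr2:25469750-25469899 (minus strand) for Ptgds and chr4:143299565-143299714 (minus strand) for Pdpn. They lie at chr6:121300138-121300287 (plus strand) for the first listed start of Slc6a13, chr6:4505468-4505617 (plus strand) for Col1a2 and chr1:45311388-45311537 (plus strand) for Col3a1.
Apod: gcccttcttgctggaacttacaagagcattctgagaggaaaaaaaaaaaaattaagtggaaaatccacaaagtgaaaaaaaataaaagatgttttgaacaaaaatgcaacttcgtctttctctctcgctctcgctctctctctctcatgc
Ptgds: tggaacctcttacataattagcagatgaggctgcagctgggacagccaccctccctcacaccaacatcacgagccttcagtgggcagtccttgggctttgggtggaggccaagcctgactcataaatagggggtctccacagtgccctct
Pdpn: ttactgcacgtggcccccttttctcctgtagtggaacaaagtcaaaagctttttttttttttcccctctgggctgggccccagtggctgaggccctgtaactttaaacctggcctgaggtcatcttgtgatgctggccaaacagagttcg
Slc6a13: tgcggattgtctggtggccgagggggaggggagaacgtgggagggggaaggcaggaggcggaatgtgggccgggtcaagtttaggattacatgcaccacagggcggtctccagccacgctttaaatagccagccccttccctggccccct
Col1a2: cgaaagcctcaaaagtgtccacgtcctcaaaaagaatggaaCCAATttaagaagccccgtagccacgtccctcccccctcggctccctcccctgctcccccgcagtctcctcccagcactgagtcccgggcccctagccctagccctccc
Col3a1: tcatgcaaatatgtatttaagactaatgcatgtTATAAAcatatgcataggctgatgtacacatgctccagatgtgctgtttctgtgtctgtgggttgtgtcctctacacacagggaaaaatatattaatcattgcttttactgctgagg

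Each stretch was searched on both strands for 3 motifs. The first was TATAAA, as in many core promoters. The second was the CCAAT box. The last was TGTTTAC, a core bound by forkhead factors. No match overlapped another. Col1a2 held CCAAT with its first base 109 bases before the start (-109), and Col3a1 held TATAAA at -117. Foxc1, not printed, held CCAAT on the opposite strand at -101. A second listed start of Slc6a13 held CCAAT at -115, and the stretches of Apod, Ptgds, Pdpn and the other listed starts of Slc6a13 held none of the 3 motifs. TGTTTAC was found in none of the members' stretches. Over 32851 listed stretches of the same length, 7.57% held TATAAA, 24.5% CCAAT and 1.8% TGTTTAC. A match is a run of letters in the reference sequence and says nothing of binding in these samples.

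Values below are probe set signals on the authors' linear scale, given per sample in the order of the sample numbers, and differences are log2 differences of quantile-normalized log2(signal + 16). A difference of 1 is a change of 2-fold. Adjusted p-values are limma's with Benjamini-Hochberg adjustment over the 12600 genes, and a gene is said to have risen or fallen where its adjusted p was under 0.05. Each gene is read through its brightest probe set. Since probe sets differ in how well they bind, levels are compared between samples and never between genes.

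Grin3b was lower in all 6 libraries labelled knockout (31.38 to 96.91) than in the 6 labelled wild type (154.8 to 352.6), although its probe set lay below the filter. Median signals of the 12 arrays ranged from 605 to 734, and the arrays' number limits the precision. P0 wild-type sample 1 stood apart in the 3′ probe set of 18S ribosomal RNA with 7728, against 48910 to 110500 in the other samples. Limma's array weights, which fall as an array departs from its group, were 0.36, 0.19 and 2.44 for P0 wild-type samples 1, 2 and 3, and 0.37, 1.14 and 0.73 for the P0 knockout samples. Xist, transcribed from the inactive X chromosome of females, was high (4786 to 16380) in samples 1 and 2 of both P0 groups and in P5 knockout sample 2, and low (293.9 to 581.3) in the other samples. Both P0 groups thus held 2 Xist-high samples, the P5 knockout group 1 and the P5 wild-type group none, so the ages differ in this respect. For the members that rose with age in wild type, results are given with and without P0 wild-type samples 1 and 2. Those of the other gene lists are given with all 12 samples only. The part of Xist-high samples in the results on age in the knockout was not tested.

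Of the 4 groups, P0 wild type had the lowest mean in 9 of the 10 genes, and P5 knockout in Pdpn. Averaged over the 10 genes, the deviation from each gene's own 12-sample mean was -0.63, -0.67 and -0.2 in P0 wild-type samples 1, 2 and 3. It was 0.12, 0.23 and -0.05 in the P0 knockout samples, 0, 0.31 and 0.27 in the P5 wild-type samples, and 0.26, 0.15 and 0.22 in the P5 knockout samples. P0 wild-type samples 1 and 2 were the farthest from the other 10 samples, and sample 3 lay between them and the P0 knockout samples. At P5 the genotypes overlapped.

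**Figure D1:**
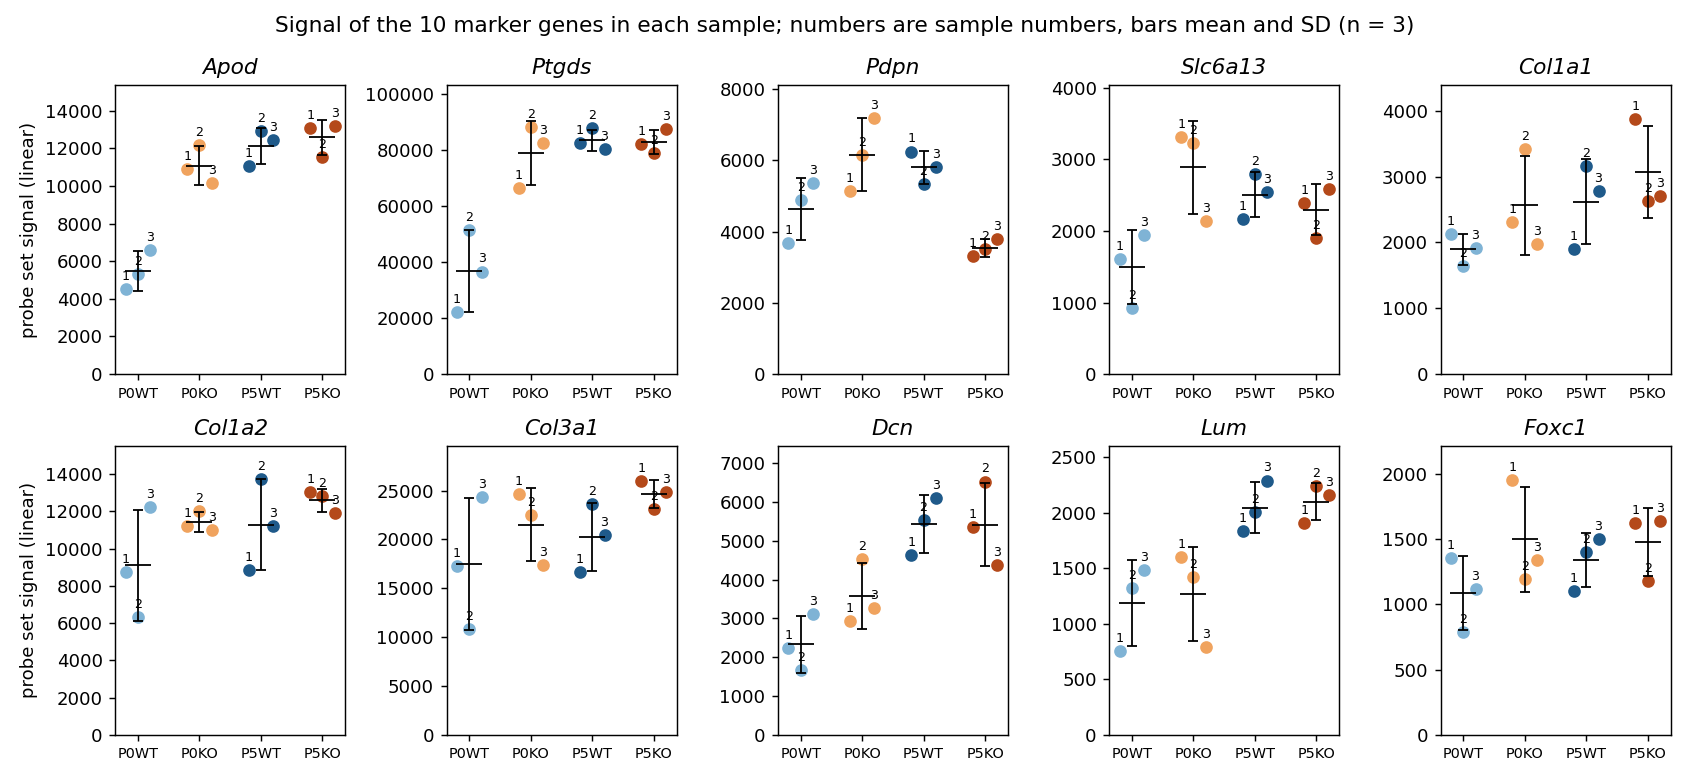
Signal of each of the 10 genes (vertical axis, linear probe set signal from 0, a scale per gene) in the 12 samples, by group on the horizontal axis; points carry the sample number, and bars are the mean and SD of 3 samples. The P0 wild-type points of Apod and Ptgds lie below all points of the other 3 groups, and the P5 knockout points of Pdpn, 3314 to 3798, lie below every P5 wild-type and P0 knockout point.

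The secreted lipid carriers Apod and Ptgds had the highest correlation of any pair over the 12 samples (r = 0.96). Apod read 4520, 5329 and 6597 in wild type at P0, 10880, 12200 and 10140 in the knockout at P0, 11070, 12900 and 12440 in wild type at P5, and 13080, 11520 and 13170 in the knockout at P5. The group means were 5480 ± 1050, 11100 ± 1040, 12100 ± 951 and 12600 ± 928 (SD, n = 3), and only the first group lay apart from the others, which overlap from each to the next. Ptgds, at the 99th percentile of probe set means, read 22220, 51620 and 36680 in wild type at P0 and 66460, 88470 and 82560 in the knockout at P0. It read 82690, 87800 and 80510 in wild type at P5 and 82380, 78930 and 87700 in the knockout at P5. The spread of Ptgds in P0 wild type (SD 14700 around 36800) was the widest of its 4 groups, and its 3 other groups again overlapped.

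Apod rose from P0 to P5 in wild type by 1.18 (SE 0.15; 2.27-fold; adjusted p = 0.000183) and Ptgds by 1.20 (SE 0.19; 2.3-fold; adjusted p = 0.000946), with every P5 sample above every P0 sample. In the knockout the same differences were 0.18 for Apod (adjusted p = 0.503) and 0.16 for Ptgds (adjusted p = 0.67), and the ages overlapped. At P0, Apod was 1.04 (SE 0.15) and Ptgds 1.04 (SE 0.19) higher in the knockout, values that took part in choosing these genes and are given with no test. The age difference in wild type uses the same P0 wild-type samples, so its p-values for Apod and Ptgds are no independent evidence. A second Ptgds probe set gave 1.55 for age in wild type and 1.40 for genotype at P0. A second and dimmer Apod probe set did not follow the first: it gave -0.11 for age in wild type, with 1775, 471.5 and 1368 in wild type at P0, and the mean of both probe sets lost the age call (0.54, adjusted p = 0.089).

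The membrane proteins Slc6a13 and Pdpn both had a higher mean in P0 knockout than in P0 wild type, but parted at P5. Slc6a13 read 1603, 927.3 and 1947 in wild type at P0, 3308, 3223 and 2141 in the knockout at P0, 2169, 2797 and 2550 in wild type at P5, and 2394, 1904 and 2590 in the knockout at P5. It was 1.05 (SE 0.23) higher in the knockout at P0, where it had been chosen from, and its P0 knockout mean was the highest of the 4 groups. Slc6a13 rose with age in wild type by 0.80 (SE 0.23; 1.75-fold; adjusted p = 0.0288), with no overlap, and the knockout difference with age was -0.35 (adjusted p = 0.383). The wild-type comparison shares its P0 samples with the one that chose Slc6a13, so its p-value is no independent evidence. The wild-type call of Slc6a13 was lost under 5 of 23 alternatives: without P0 wild-type sample 1 (0.86, adjusted p = 0.0553), without P0 wild-type samples 1 and 2 (0.38, adjusted p = 0.291), without P5 wild-type sample 2 (0.72, adjusted p = 0.103) or 3 (0.79, adjusted p = 0.0819), and with only the groups compared (adjusted p = 0.0666).

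Pdpn was the only one of the 10 to fall. It read 3681, 4884 and 5373 in wild type at P0, 5148, 6146 and 7186 in the knockout at P0, 6249, 5344 and 5813 in wild type at P5, and 3314, 3510 and 3798 in the knockout at P5. In the knockout, Pdpn fell from P0 to P5 by 0.79 on the log2 scale (SE 0.16; 1.73-fold; adjusted p = 0.00817), and every P5 sample was below every P0 sample. This difference is a component of the contrast on which Pdpn had been noticed, so its p-value is no independent evidence. In wild type the difference with age was 0.35 (SE 0.16, adjusted p = 0.143), and the deposited signals of the ages overlapped. Between the genotypes at P5, Pdpn was at -0.71 (SE 0.16) with no overlap between the groups, but its adjusted p was 1 in the fit over all 4 groups. It passed only where the fit used the P5 groups alone (adjusted p = 0.0428) or array weights (adjusted p = 0.0206). The P5 difference is likewise a component of the contrast on which Pdpn had been noticed, so these p-values are no independent evidence. The genotype difference at P5 less that at P0, on which Pdpn had been noticed, was -1.14 (SE 0.23), given as a description.

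None of the fibrillar collagens passed the test for age or for genotype at P5 when read through the brightest probe set, while Col1a2 passed for age in wild type with the mean of its probe sets (0.51, adjusted p = 0.0445). Col1a1 read 2125, 1649 and 1913 in wild type at P0, 2308, 3413 and 1976 in the knockout at P0, 1906, 3168 and 2784 in wild type at P5, and 3882, 2635 and 2706 in the knockout at P5. The deposited signals of the P0 groups overlapped in Col1a1, whereas after quantile normalization every P0 knockout sample lay above every P0 wild-type sample, by as little as 11.08 against 11 on the log2 scale. Col1a2 read 8740, 6316 and 12220 in wild type at P0 against 11230, 12010 and 10970 in the knockout at P0, and Col3a1 17250, 10830 and 24380 against 24620, 22490 and 17350. P0 wild-type sample 2 was the lowest of all 12 samples in all 3 collagens, whereas sample 3 of the same group was as high as the knockout samples in Col1a2 and Col3a1. At P5, Col1a2 ranged from 8853 to 13730 in wild type and 11900 to 13060 in the knockout, and Col3a1 from 16620 to 23590 and from 23090 to 26030.

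From P0 to P5 in wild type, the differences were 0.44 for Col1a1 (adjusted p = 0.175), 0.34 for Col1a2 (adjusted p = 0.239) and 0.25 for Col3a1 (adjusted p = 0.513), with SE of 0.20 to 0.25. At P0 the knockout differed by 0.46, 0.38 and 0.28 in the same order. Leaving out P0 wild-type samples 1 and 2 left only sample 3 of that group. The P0 differences of Col1a2 and Col3a1 in their brightest probe sets then turned to -0.11 and -0.32. Those with age turned to -0.14 and -0.35. The other probe sets gave the same signs with all 12 samples. A second Col1a2 probe set gave 0.73 for age in wild type and 0.76 for genotype at P0, and another probe set below the filter 0.47 and 0.48. A second Col1a1 probe set gave 0.49 and 0.45, and a second Col3a1 probe set 0.09 and 0.41. In the second Col1a2 probe set, P0 wild-type sample 3 lay at 12.32 on the log2 scale. That was below the group means of P0 knockout (12.96) and P5 wild type (12.93), so the turn of sign in Col1a2 depends on the probe set. In the second Col3a1 probe set the same sample lay at 11.59, against 11.65 and 11.34.

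The proteoglycans Dcn and Lum, neighbours on chromosome 10, both had higher means at P5 than at P0 in either genotype. Dcn read 2229, 1662 and 3111 in wild type at P0, 2922, 4532 and 3268 in the knockout at P0, 4636, 5544 and 6111 in wild type at P5, and 5349, 6526 and 4375 in the knockout at P5. It rose with age in wild type by 1.26 (SE 0.22; 2.39-fold; adjusted p = 0.00225), the largest difference among the 10 genes, while the knockout difference was 0.58 (adjusted p = 0.116). Lum read 750.6, 1319 and 1485 in wild type at P0, 1597, 1422 and 787.8 in the knockout at P0, 1835, 2002 and 2289 in wild type at P5, and 1909, 2236 and 2155 in the knockout at P5. Every P5 sample of Lum was above every P0 sample in both genotypes. Lum rose in wild type by 0.82 (SE 0.26; adjusted p = 0.0395), and stood at 0.72 in the knockout (adjusted p = 0.0929). The wild-type call of Lum was kept under 13 of 23 alternatives. It was lost with no filter (adjusted p = 0.0562), with only the groups compared (adjusted p = 0.0746), and without P0 wild-type sample 1 (0.50, adjusted p = 0.155), any single P5 sample (adjusted p 0.0517 to 0.124) or both P0 wild-type samples 1 and 2 (0.47, adjusted p = 0.246). Of the 10 genes, Lum had the smallest genotype difference at P0, 0.16 (SE 0.26), which was -0.15 without P0 wild-type sample 1. For Dcn it was 0.67 (SE 0.22) and the P0 groups overlapped. A second Dcn probe set lay below the filter and did not follow the first (-0.38 for age in wild type and -1.26 for genotype at P0, SE 0.57), and averaging both lost the age call (0.44, adjusted p = 0.244). Chromosome 10 also carries Grin3b.

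Foxc1, the transcription factor of the set, read 1358, 786.7 and 1115 in wild type at P0, 1955, 1196 and 1339 in the knockout at P0, 1105, 1400 and 1503 in wild type at P5, and 1622, 1179 and 1638 in the knockout at P5. All 4 groups overlapped. The difference with age was 0.31 in wild type (adjusted p = 0.323) and -0.04 in the knockout (adjusted p = 0.944), and the P0 genotype difference was 0.53 (SE 0.22). A second Foxc1 probe set gave -0.06 for that genotype difference, so the direction depends on the probe set. With age the second probe set gave 0.47 in wild type and 0.48 in the knockout (SE 0.21), so the knockout age difference depends on it too.

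Over the set, 5 of 10 genes rose from P0 to P5 in wild type (Apod, Ptgds, Slc6a13, Dcn and Lum) and none fell, where 10.8% of all genes tested rose and 8.52% fell. All 10 differences were above 0, with a median of 0.62 (0.25 to 1.26) beside 0.03 over all genes tested. In the knockout, 0 of 10 rose and 1 fell (Pdpn), where 5.5% of all genes rose and 4.95% fell. There the median was 0.17 (-0.79 to 0.72) beside -0.03 over all genes. The ages within a genotype share their P0 samples with the P0 comparison from which genes had been chosen, so a low level in P0 wild type enters both. They are also the components of the change of the genotype difference with age, on which Apod and Pdpn had been noticed. The age calls of Apod, Ptgds, Slc6a13 and Pdpn are therefore not independent of their choice. Whether the age difference of the set differs between the genotypes was not tested, because that contrast had also been used in choosing. Without P0 wild-type samples 1 and 2, the remaining sample of that group being assumed to vary like the others and all 4 wild-type samples being low in Xist, 3 genes still rose in wild type. These were Apod at 0.91 (adjusted p = 0.00225), Ptgds at 1.01 (adjusted p = 0.000461) and Dcn at 0.82 (adjusted p = 0.0408). The count in wild type was also 3 without P0 wild-type sample 1 and without P5 wild-type sample 2 or 3.

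**Figure D2:**
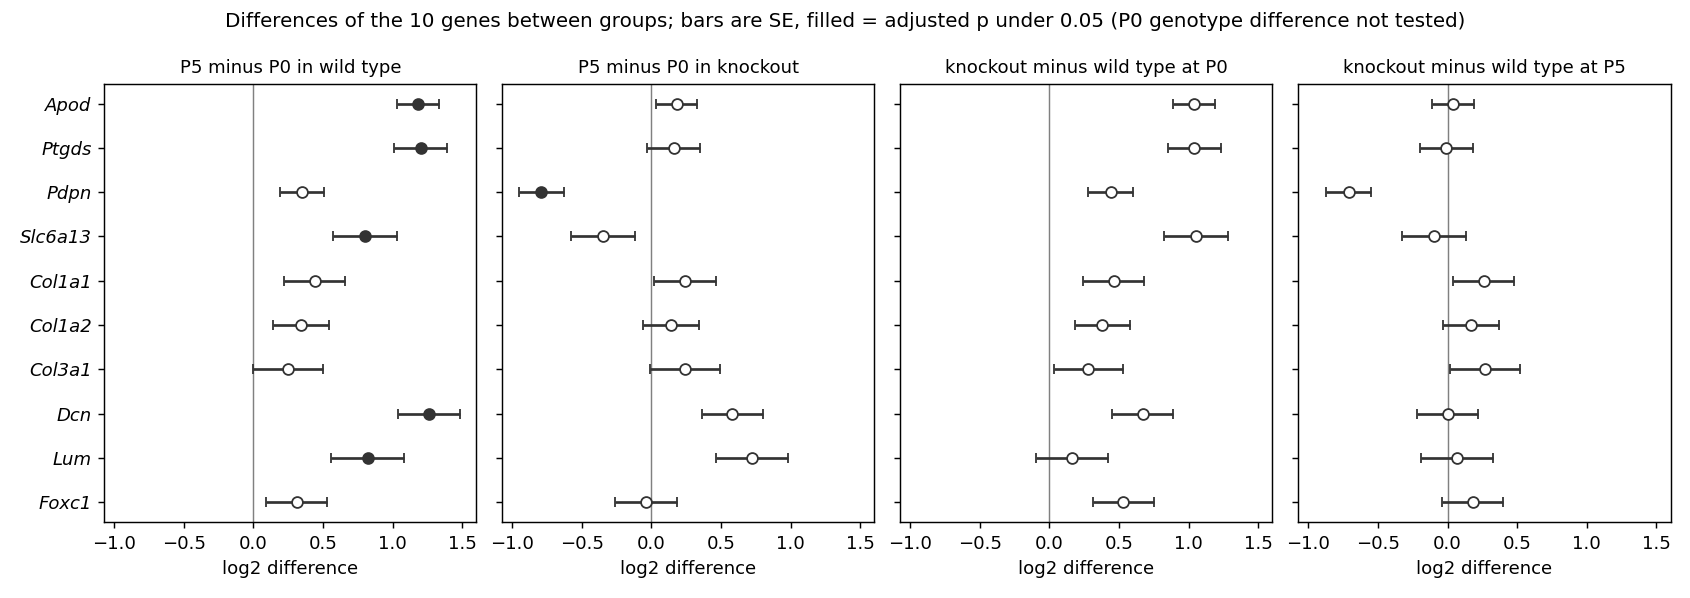
Log2 differences of the 10 genes (horizontal axis; bars are SE from the limma fit) for age in wild type, age in knockout, genotype at P0 and genotype at P5; filled points have an adjusted p under 0.05, and the P0 genotype difference was not tested. All 10 points lie right of 0 for age in wild type and for genotype at P0, and at P5 the genotype points lie near 0 except Pdpn at -0.71.

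Between the genotypes at P5, 0 of 10 genes passed in the limma fit, where 0% of all genes were higher and 0.00794% lower, 1 gene in all. An unadjusted p under 0.05 was found for 232 genes, a share below 0.05 of all genes tested. This fit takes the spread of each gene from the P0 and P5 groups together. The members' median was 0.05 (-0.71 to 0.27) beside 0 over all genes, and apart from Pdpn they lay between -0.10 and 0.27 with SE of 0.15 to 0.26. With only the P5 groups fitted, or with array weights, 1 member passed, again Pdpn, which had been noticed on a contrast that includes this P5 difference. At P0, the knockout was higher in all 10 genes, with a median of 0.49 (0.16 to 1.05), beside 0.07 over all genes, 59.1% of which were above 0. In 4 of the 10 genes (Apod, Ptgds, Slc6a13 and Col1a1), every P0 knockout sample was above every P0 wild-type sample, as in 6.66% of all genes. These P0 values chose some of the members and nothing is read from them. Without P0 wild-type samples 1 and 2, the P0 difference was 0.77 for Apod, 0.85 for Ptgds and 0.62 for Slc6a13. It was below 0 in Col1a2, Col3a1 and Lum, each read through its brightest probe set.

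**Figure D3:**
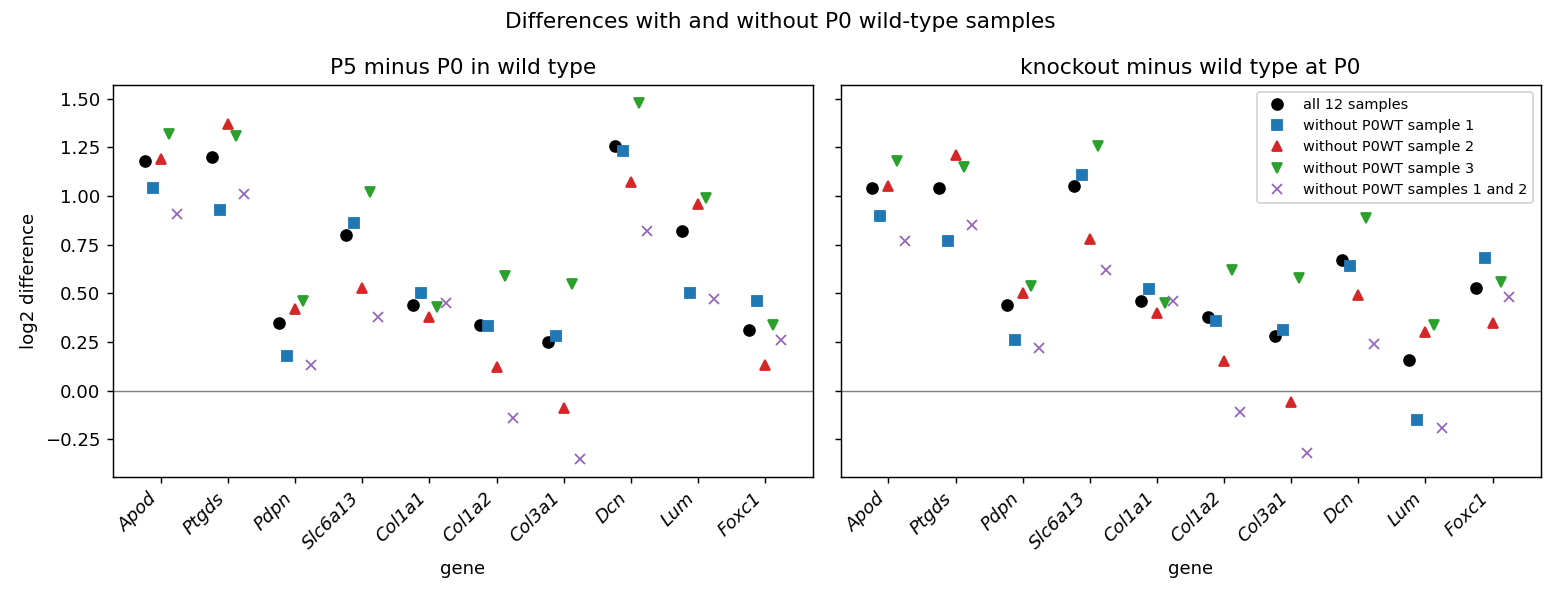
Log2 differences of the 10 genes (vertical axis) for age in wild type and for genotype at P0, with all 12 samples (black) and leaving out P0 wild-type sample 1, 2, 3 or both 1 and 2. Apod and Ptgds stay at 0.77 or above in every setting. Col3a1 falls to -0.35 and -0.32 without samples 1 and 2, where sample 3 alone is left in P0 wild type.

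The 10 genes differed in how closely they followed each other. Pearson correlations of the 45 pairs over the 12 samples, which share arrays and groups, ranged from -0.3 to 0.96 with a median of 0.61, and 39 were above 0. The lowest was that of Pdpn with Col3a1. Deviations from the group means, which leave out the differences between groups, gave a median of 0.34 (-0.58 to 0.93) with 33 of 45 above 0. There the highest pairs were Slc6a13 with Col3a1 at 0.93 and Col1a2 with Col3a1 at 0.90, so these genes followed each other from sample to sample within a group. By the same measure Pdpn ranged from -0.54 with Foxc1 to 0.69 with Ptgds. The 10 other genes with profiles most like the standardized mean of the set over the 12 samples (r = 0.891 to 0.926) were Slc6a3, Cd300c2, Cdh1, Th, Islr, Abca9, Pcolce, Ogn, Fam110a and Fcgrt. Of these, Cdh1, Pcolce and Ogn stand in the lists of meningeal, collagen-processing and matrix genes used here. Slc6a3, the dopamine transporter, led at 0.926 with log2 levels of 8.47, 8.45 and 9.73 in wild type at P0 and 9.52 to 11.08 in the other samples.

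Further genes listed as markers of the same tissue were read beside the 10, and like the 10 they need not be private to it. The counts of this and the following lists stand beside the same shares over all genes as above: with age, 10.8% rose and 8.52% fell in wild type, and 5.5% rose and 4.95% fell in the knockout. Of 41 further meningeal genes tested, 14 rose with age in wild type and 0 fell, 4 rose in the knockout and 0 fell, and 0 passed between the genotypes at P5. Their medians were 0.44, 0.21 and 0.03, and at P0 the median genotype difference was 0.44 with 36 of 41 above 0, where 59.1% of all genes were above 0. The age difference in wild type and the P0 difference share the P0 wild-type samples, so they are not separate results. The list was also chosen with earlier results of these data known. Igf2, a growth factor made by the leptomeninges and choroid plexus, rose in wild type by 1.49 (adjusted p = 4.12e-05) and in the knockout by 0.55 (adjusted p = 0.0367). Cxcl12, the chemokine that guides migrating precursor cells beneath the meninges, rose by 1.17 (adjusted p = 8.32e-05) and 0.63 (adjusted p = 0.00838). Igfbp2, an insulin-like growth factor binding protein, and Tbx18, a transcription factor of mural and meningeal cells, rose in wild type by 0.92 (adjusted p = 0.000812) and 1.49 (adjusted p = 0.00142).

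Of 19 other collagens tested, 0 rose and 2 fell in wild type, the share that fell being near that of all genes, and 12 of the 19 differences were above 0. Those that fell were Col11a1 at -0.86 (adjusted p = 0.00165) and Col14a1 at -0.79 (adjusted p = 0.00777). In the knockout 1 fell, Col14a1 at -0.68 (adjusted p = 0.0235). Of 25 genes that fold, modify or cross-link collagen, 6 rose in wild type and 3 in the knockout and none fell. Serpinh1, the collagen chaperone, rose by 0.98 in each genotype (adjusted p = 0.00219 and 0.00278), and Loxl1, which cross-links elastic fibres, by 1.11 and 0.83 (adjusted p = 0.000609 and 0.00524). Of 23 other proteoglycans and matrix proteins tested, 6 rose in wild type and none fell, and 3 rose and 1 fell in the knockout. Mfap4, a microfibril-associated protein, had the largest difference there, 5.6 in wild type (SE 0.57; adjusted p = 3.92e-05) and 4.33 in the knockout (adjusted p = 0.000337). Biglycan (Bgn), a close relative of decorin, rose in wild type by 1.08 (adjusted p = 0.00172) and stood at 0.31 in the knockout (adjusted p = 0.325).

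Relatives by function of Ptgds, Apod and Slc6a13 gave mixed values. Of 11 tested genes of prostaglandin synthesis, transport and reception, 2 rose and 2 fell in wild type. Pla2g4a, the phospholipase that releases arachidonic acid, rose by 1.41 (adjusted p = 0.00101) in wild type and by 1.44 (adjusted p = 0.00106) in the knockout. Slco2a1, a prostaglandin transporter, and Ptger4, a receptor for prostaglandin E2, fell in wild type by 1.07 (adjusted p = 0.00826) and 0.64 (adjusted p = 0.015). Of 6 other transporters of GABA and related solutes tested, 1 rose in wild type, the astrocytic GABA transporter Slc6a11 at 0.57 (adjusted p = 0.0314), and 0 passed in the knockout. Of 10 other lipocalins measured, only Rbp4, the plasma retinol carrier, passed the filter, and it rose in wild type by 1.19 (adjusted p = 0.00633).

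Tissue carry-over was examined sample by sample through lists of markers of other cell types and of tissues that border the brain and spinal cord, as the mean deviation of each list from its 12-sample mean. Of the lists nearest to the 10 genes, those of other meningeal genes and other matrix proteins were lowest in P0 wild-type samples 1 and 2, while the collagen lists followed less closely. The 42 other meningeal genes measured stood at -0.47, -0.45 and -0.21 in P0 wild-type samples 1 to 3 and between -0.04 and 0.22 in the other 9, and their summed signal ranged from 128500 to 146500 in P0 wild type, 164600 to 180400 in P0 knockout, 187400 to 203300 in P5 wild type and 188800 to 208000 in P5 knockout. The 30 other matrix proteins stood at -0.54 and -0.47 in P0 wild-type samples 1 and 2 but at 0.01 in sample 3. The 19 other collagens were low only in P0 wild-type sample 2, at -0.45, against 0.05 and 0.09 in samples 1 and 3. The 25 collagen-processing genes stood at -0.35, -0.19 and -0.02 in P0 wild type and at -0.19, 0.02 and 0.03 in P0 knockout.

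Markers of red blood cells also differed between the groups: 8 measured genes, 4 below the filter, stood at -0.47, -0.41 and -0.76 in P0 wild type, and group means were -0.55, 0.06, 0.06 and 0.42 in the order P0 wild type, P0 knockout, P5 wild type and P5 knockout. Their summed signal was 2213 to 3339 in P0 wild type, 3930 to 5934 in P0 knockout, 4993 to 7248 in P5 wild type and 6263 to 9463 in P5 knockout. The part of blood content in the values of the 10 genes was not tested. Markers of pericytes stood at -0.27, -0.2 and -0.42 in P0 wild type, below the other 9 samples, with group means of -0.3, -0.08, 0.19 and 0.19. Their summed signals overlapped at P0, with 26710 to 34950 in wild type and 29500 to 31090 in the knockout. Of 10 pericyte genes tested, 4 were higher in the knockout at P0, where 59.1% of all genes were. The median was -0.04 (-0.34 to 1.6, the highest being Cd248). Markers of endothelial cells had group means of -0.23, -0.2, 0.2 and 0.23. With age, 4 of 10 pericyte genes and 6 of 13 endothelial genes rose in wild type and 2 and 3 in the knockout, and none fell. Cldn5, a tight junction protein, rose in wild type by 0.87 (adjusted p = 0.000152). The part of vascular cells in the values of the 10 genes was not tested.

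Markers of the choroid plexus, 12 measured of which 2 lay below the filter, varied widely among the P0 samples. They stood at 0, -1.18 and 0.21 in wild type at P0 and -0.57, -1 and 0.72 in the knockout at P0, and between 0.09 and 0.46 at P5. Their summed signal ranged from 23010 to 181900 within P0 wild type and from 59040 to 179500 within P0 knockout. Ptgds and Pdpn are made by the choroid plexus too, and its part in their values was not tested.

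Myelinating oligodendrocytes express Apod and Ptgds, and their 9 measured markers stood at -1.21 and -1.46 on average in P0 wild type and P0 knockout and at 1.36 and 1.3 at P5. Of 8 tested, 7 rose with age in each genotype (median 2.69 and 2.71), for example Mag, a myelin adhesion protein, at 3.16 (adjusted p = 9.87e-08) and 3.25 (adjusted p = 6.81e-08). The part of these cells in the values of Apod and Ptgds was not tested.

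The remaining lists were peripheral nerve, muscle, skeleton, skin, pituitary and neurons. Sensory ganglion neuron markers, 7 measured with 2 below the filter, were high in P0 wild-type sample 3 (1.39) and P0 knockout sample 2 (1.02) and between -0.16 and 0.06 in the other P0 samples, with sums of 7104 to 16160 and 7426 to 13140. They were low at P5, where sums ran from 4071 to 5347, and Prph, a peripheral neuron filament, fell in both genotypes by 1.27 (adjusted p = 0.00126) and 1.41 (adjusted p = 0.000719). Schwann cell markers ranged from -0.66 to 0.6 within P0 wild type, with 5 of 7 below the filter. Skeletal muscle markers (9 of 14 below the filter) were highest in P5 wild-type sample 3 at 0.63 and P0 knockout sample 3 at 0.48. Cartilage markers (6 of 13 below) had group means of -0.08, -0.3, 0.25 and 0.13. Bone (4 of 6 below), skin (6 of 9), melanocyte (6 of 6) and pituitary markers (7 of 8) were mostly dim, with group means between -0.2 and 0.27. Neuron markers, all 10 above the filter, had group means of 0.16, 0.09, -0.09 and -0.16. Whether the amount of meninges left on the tissue differed between samples was not tested, since no value of it was given apart from these transcripts.

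**Figure D4:**
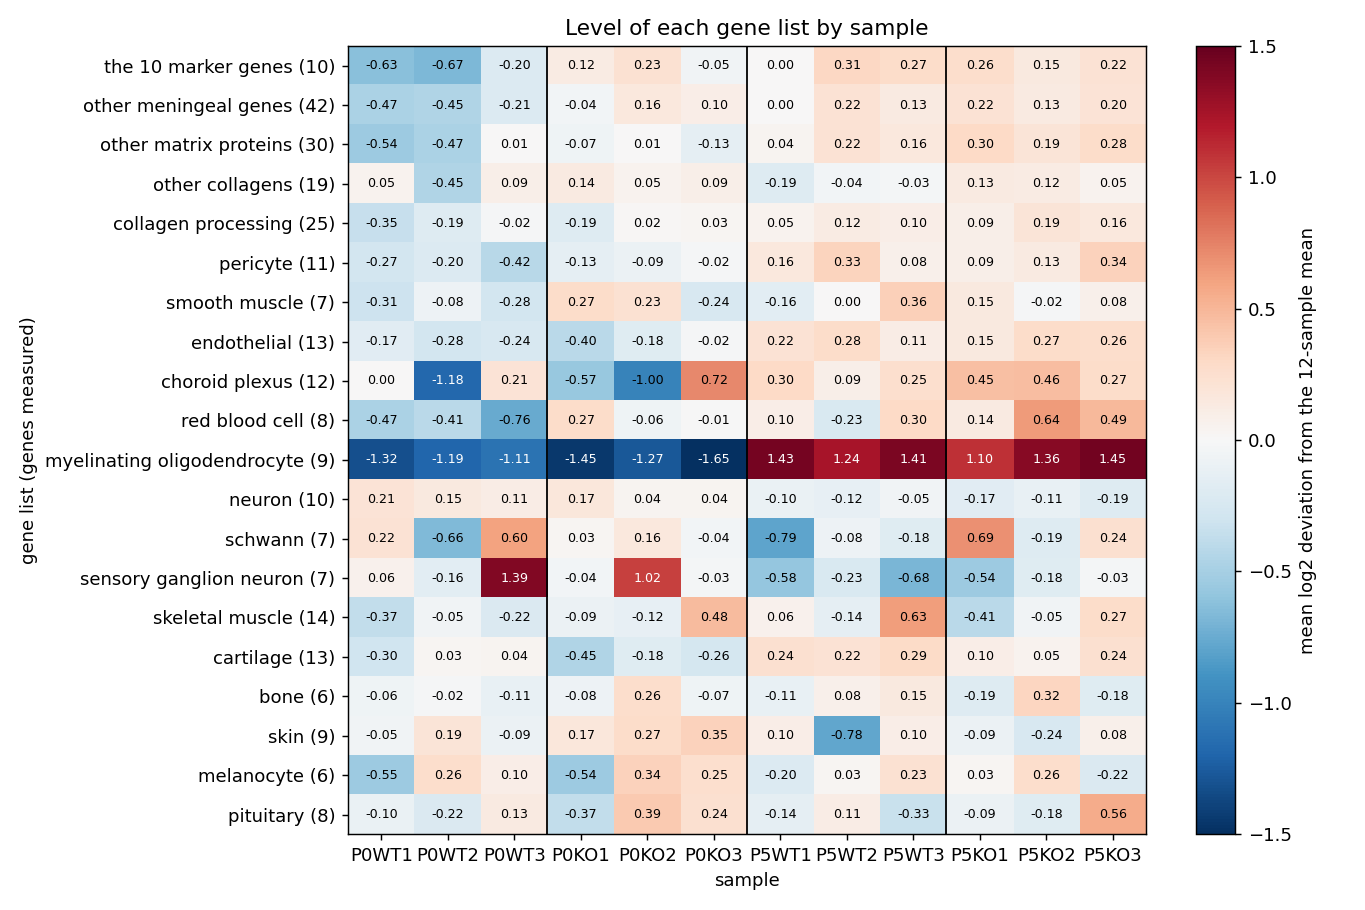
Mean log2 deviation from the 12-sample mean (colour and printed value) of each gene list (rows, with the number of genes measured) in each of the 12 samples (columns, in group order). The 10 marker genes, other meningeal genes and other matrix proteins are blue in P0 wild-type samples 1 and 2 (-0.63 and -0.67 for the 10 genes), while choroid plexus, sensory ganglion and muscle rows vary within groups.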

How the data were processed

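The authors deposited 1 table with a linear intensity for each of 45101 probe sets on 12 arrays. How these signals were computed, and with which software, is not stated in the sources used here. The mean after trimming 2% at each end was 2500.01 on every array, so a single factor had scaled each. Leaving out 64 controls, the platform annotation gave 1 symbol for 34945 probe sets, several for 932 and none for 9160.

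Signals were transformed as log2(signal + 16), which understates changes of dim genes, and quantile-normalized, because array medians spread over 0.27. The brightest probe set stood for each gene, and those below the 40th percentile of means (8.72) were left out. Limma 3.58.1 (R 4.3.3) fitted the 4 group means over the 12 samples with an intensity trend in the empirical Bayes step (8 residual and 5.64 prior degrees of freedom). The p-values were adjusted by Benjamini-Hochberg over 12600 genes. The fitting script was tested on simulated data, from which no value is used. The members and the 22 other lists (324 entries) were chosen with earlier results of these data known, so no p-value is given for genotype at P0, its average over ages or its change with age.

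Named genes are the members with all their probe sets, Grin3b, up to 4 genes per list with the smallest p under an adjusted 0.05 in a tested comparison (otherwise the 2 brightest), and the 10 genes most correlated with the members' mean. Xist and 18S RNA were read as checks of the samples. Alternatives were the deposited scaling, other pseudocounts and filters, the mean of a gene's probe sets, only the groups compared, array weights, no intensity trend, a replicate block and leaving out samples.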

Additional observations from a re-analysis of the deposited data

Results flagged for a closer look

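Pdpn differed between the ages in the direction of its genotype difference. All 3 knockout samples were above the wild-type mean at P0, where the groups overlapped, and all 3 were below it at P5, and the difference at P5 less that at P0 was -1.14 on the log2 scale. The rule for flagging also read an adjusted p for this change between the ages. It is not given, because Pdpn had been noticed on that change.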

How the results depend on the processing

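No called value changed its sign under any of the 23 alternatives; where a call or a median moved, the cause was not tested. The 5 members that rose with age in wild type became 3 with only the groups compared and 3 without P0 wild-type samples 1 and 2, and 3 to 5 when leaving out 1 sample. The 1 member that fell in the knockout became 2 calls with array weights and 2 without P0 wild-type samples 1 and 2, and 1 to 2 when leaving out 1 sample. The addition was Lum, which rose. Between the genotypes at P5, 0 became 1 with only the groups compared and 1 with array weights. The members' median with age in wild type was 0.44 with array weights and 0.41 without P0 wild-type samples 1 and 2. The median change of the genotype difference with age, -0.51, was -0.34 with the mean of all probe sets and -0.27 without P0 wild-type samples 1 and 2. With the replicate block, the counts were 5, 1 and 0 as before. Whether sample numbers pair the samples was not settled, since differently numbered samples were not compared. Deviations of same-numbered samples correlated at -0.047, 0.047 and 0.105 with age in wild type and 0.16, 0.002 and 0.082 with age in the knockout. Between the genotypes they correlated at 0.414, 0.378 and 0.028 at P0 and -0.108, -0.128 and -0.126 at P5. With the block, calls over all genes with age in wild type went from 2438 to 2883. Over all genes, calls with age in wild type ranged from 1202 to 4830 when leaving out 1 sample, and were 1315 with only the groups compared and 6005 with array weights. With age in the knockout, 1317 became 652 to 1968 when leaving out 1 sample, 2101 with array weights and 2179 without P0 wild-type samples 1 and 2. For genotype at P5, 1 gene became 0 to 3 when leaving out 1 sample, 6 with only the groups compared and 6 with array weights. With 3 arrays a group, a difference that was not called is not shown to be absent.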
